A study of Sus scrofa with 6 samples.

Results

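The genes described here are 7 that encode slow-fibre sarcomere proteins: the slow troponin subunits TNNC1, TNNI1 and TNNT1, the slow essential light chain MYL3, the slow-type heavy chain MYH7B, the slow myosin-binding protein C MYBPC1 and the alpha-actinin ACTN2. They were taken by symbol from a list drawn up with earlier results of these data known. Counts and medians over the 7 are therefore descriptions, not tests of the list. All 7 were found among the 17627 genes of the deposited table. Each gene was measured in 6 libraries of longissimus dorsi, a muscle that runs along the spine. The Wannanhua, an indigenous pig of China, and the Yorkshire, a commercial pig bred for lean growth, gave 3 libraries each. All 6 libraries carry an age label of 5 months and no treatment, although the series' design text calls the animals piglets. The labels name no sex, no number of animals behind a library and no place of sampling along the muscle. As nothing says that the libraries came from separate animals, p-values here cover only the spread among these libraries, and that spread may be technical in part.

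A sarcomere is the repeating unit of the contractile fibril, in which myosin filaments pull on actin filaments anchored at the Z-disc. Troponin sits on the actin filament as a complex of a calcium-binding subunit, an inhibitory subunit and a tropomyosin-binding subunit, and lets contraction start when calcium binds. Most of these proteins exist in a slow form, found in fatigue-resistant oxidative fibres, and a fast form, found in the white fibres that make up most of the pig's back muscle. In bulk muscle, fewer fibres of a type and less RNA per fibre cannot be told apart.

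The libraries held from 16385602 to 21056699 recovered reads, with no gap in depth between the breeds. Wannanhua 3 stood nearest to the Yorkshire libraries on the first principal component over all tested genes, at -16.56 against -35.47 and -45.08 in the other Wannanhua libraries and 23.61 to 42.47 in Yorkshire. The members' results are therefore given with and without Wannanhua 3. The members' depth ran from 1350 reads for MYH7B in Yorkshire 2 to 301409 reads for MYBPC1 in Wannanhua 1. Of 8 skeletal muscle markers, 3 had a named row, DES, CASQ1 and TCAP, and their summed level was 8895 to 13282 FPKM in Wannanhua and 7843 to 9152 in Yorkshire. The sum joins opposite directions. Mean FPKM in Wannanhua and Yorkshire was 4917 and 2501 for DES, 5099 and 2271 for TCAP, but 1552 and 3646 for CASQ1. It therefore does not show that muscle content was alike. FPKM counts fragments per kilobase of transcript, scaled to the mapped fragments of the library, so levels of different genes can be set side by side.

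All 7 genes had a higher mean level in Wannanhua than in Yorkshire muscle, by a factor of 2.56 for MYH7B to 4.98 for MYBPC1. MYBPC1 and ACTN2 passed the test across all genes, and the other 5 did not. The troponin genes, MYL3 and MYH7B were high in Wannanhua 1 and 2, but in Wannanhua 3 they lay among the Yorkshire libraries. MYBPC1 and ACTN2 were the genes for which all Wannanhua libraries stood above all Yorkshire libraries. The count of 2 of 7 called, both higher in Wannanhua, compares with 1.76% of the 11791 genes tested that were called higher by the same rule, an adjusted p under 0.05 in limma (3.05% in either direction). All Wannanhua libraries exceeded all Yorkshire libraries in 2 of the 7, against 20.3% of all genes tested (29.9% did not overlap in either direction). The median log2 fold change of the 7 was 1.45, and the median over all tested genes was 0.12.

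**Figure D1:**
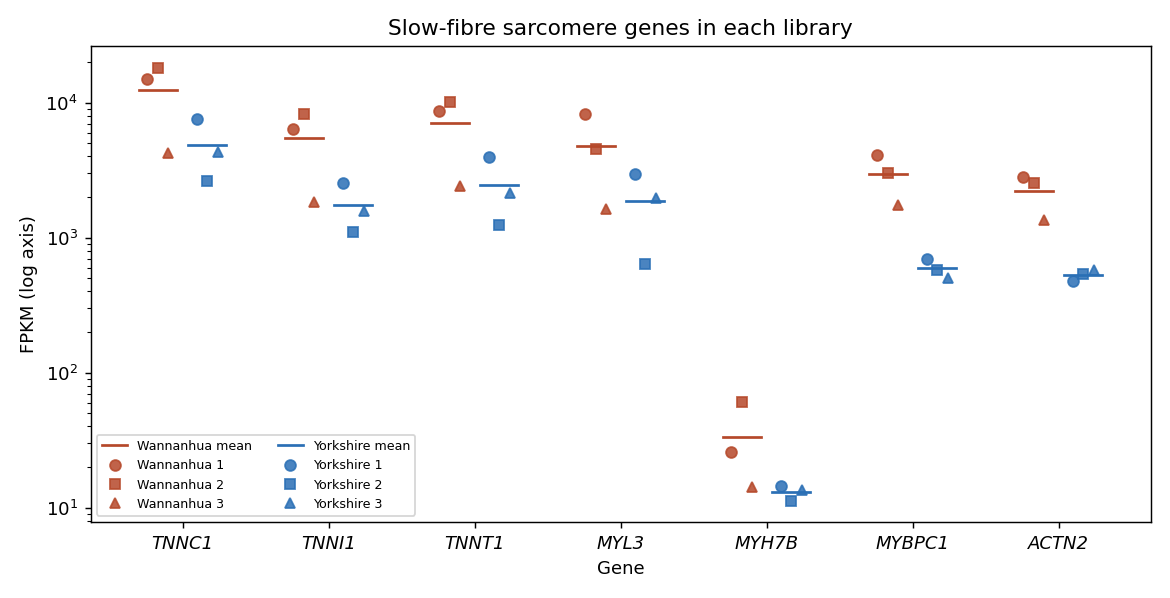
FPKM (log axis) of the 7 genes in each library, Wannanhua in red and Yorkshire in blue; each symbol is 1 library and each horizontal line a breed mean. For MYBPC1 and ACTN2 all red points lie above the blue ones, while for the other genes Wannanhua 3 (red triangle) lies within the blue range.

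TNNC1 (ENSSSCG00000011441), the slow and cardiac troponin C that binds calcium, was the most abundant of the 7 in every library. Its level was 14965 FPKM in Wannanhua 1, 18172 in Wannanhua 2 and 4240.18 in Wannanhua 3, and 7577, 2612 and 4301 in Yorkshire 1, 2 and 3. Wannanhua 3 was lower than Yorkshire 1 and 3 and higher than Yorkshire 2, so the breeds overlapped. The means were 12459 ± 7296 and 4830.04 ± 2525 FPKM (SD, n = 3). The breeds differed by 1.25 ± 0.62 on the log2 scale (SE; limma adjusted p = 0.280), with a 95% interval from -0.19 to 2.69. Without Wannanhua 3 it was 1.91 (limma adjusted p = 0.0680).

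TNNI1 (ENSSSCG00000024061), slow troponin I, is the inhibitory subunit that holds the filament off in the absence of calcium. It stood at 6410.26, 8253 and 1825 FPKM in the 3 Wannanhua libraries in order of number, and at 2540.45, 1093 and 1565 in the Yorkshire ones. Again Wannanhua 1 and 2 were the highest libraries and Yorkshire 1 stood above Wannanhua 3. On the log2 scale the difference was 1.49 ± 0.59 (SE; limma adjusted p = 0.196), with a 95% interval from 0.12 to 2.86 before adjustment for the number of genes. Without Wannanhua 3 it was 2.16 and passed the threshold (limma adjusted p = 0.0305).

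TNNT1 (ENSSSCG00000025353), slow troponin T, ties the complex to tropomyosin. Its level was 8663, 10095 and 2415 FPKM in Wannanhua 1, 2 and 3, against 3950.38, 1239.55 and 2134 in Yorkshire 1, 2 and 3. The order of the libraries was the same as for TNNI1. The means were 7058 ± 4084 and 2441 ± 1381 FPKM (SD, n = 3). Wannanhua exceeded Yorkshire by 1.45 ± 0.63 on the log2 scale (SE; limma adjusted p = 0.231), with a 95% interval from -0.02 to 2.91. It was 2.10 without Wannanhua 3 (limma adjusted p = 0.0617).

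Although each slow troponin gene varied by 6.96-fold to 8.14-fold between its highest and lowest library, the proportions among the 3 varied far less. TNNT1 stood at 0.475 to 0.579 of the TNNC1 level in the 6 libraries, a 1.22-fold range. TNNI1 stood at 0.335 to 0.454 of TNNC1, a 1.35-fold range, and at 0.643 to 0.882 of TNNT1, a 1.37-fold range. These were the 3 narrowest ranges among the 21 pairs that the 7 genes form. The next was MYBPC1 to ACTN2, from 0.880 to 1.46, a 1.66-fold range, and the widest was MYL3 to MYH7B, a 5.68-fold range. These ratios are descriptions within libraries and were not tested.

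MYL3 (ENSSSCG00000011325), the essential light chain of slow skeletal and ventricular myosin, steadies the lever arm of the motor. It stood at 8266, 4534 and 1628 FPKM in Wannanhua 1, 2 and 3, against 2946, 632 and 1978 in Yorkshire 1, 2 and 3. Wannanhua 3 lay below Yorkshire 1 and 3. Unlike the troponin genes, MYL3 was higher in Wannanhua 1 than in Wannanhua 2, and TNNC1 stood at 1.81 times MYL3 in the first and 4.01 times in the second. The log2 fold change of MYL3 was 1.35 ± 0.72 (SE; limma adjusted p = 0.320), with a 95% interval from -0.34 to 3.04. It was 1.99 without Wannanhua 3 (limma adjusted p = 0.148). MYL3 had the widest range between libraries of the 7, at 13.1-fold.

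MYH7B (ENSSSCG00000007288) encodes a slow-type myosin heavy chain and carries the microRNA miR-499 within it. It was the least abundant of the 7 in every library, at 26.0, 60.5 and 14.2 FPKM in Wannanhua 1, 2 and 3, against 14.6, 11.3 and 13.4 in Yorkshire 1, 2 and 3. The breed difference in means, 33.5 ± 24.1 against 13.1 ± 1.68 FPKM (SD, n = 3), rested on Wannanhua 1 and above all Wannanhua 2, while Wannanhua 3 fell between Yorkshire 1 and 3. On the log2 scale MYH7B differed by 1.06 ± 0.46 (SE; limma adjusted p = 0.231), by 1.54 without Wannanhua 3 (limma adjusted p = 0.0668) and by 0.53 without Wannanhua 2 (0.449). In the RefSeq gene table of assembly Sscrofa11.1 the span of MYH7B touches that of TRPC4AP, and the libraries do not keep strand. TRPC4AP stood at 43.8 to 66.2 FPKM in Wannanhua and 54.5 to 64.8 in Yorkshire (limma adjusted p = 0.544), with 47.0 FPKM in Wannanhua 2. The part of its reads in the MYH7B values was not tested.

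MYBPC1 (ENSSSCG00000000866), the slow form of myosin-binding protein C, braces the myosin filament and is present in fast fibres as well. It stood at 4097 FPKM in Wannanhua 1, 3001 in Wannanhua 2 and 1730.05 in Wannanhua 3, and at 693, 574 and 506 in Yorkshire 1, 2 and 3. The lowest Wannanhua library was thus well above the highest Yorkshire library. The means were 2943 ± 1185 and 591 ± 94.7 FPKM (SD, n = 3), and MYBPC1 was higher in Wannanhua by 2.24 ± 0.34 on the log2 scale (SE; limma adjusted p = 0.0295). The edgeR test on recovered reads also called it (log2 fold change 2.21, adjusted p = 0.0436), as it did 1.41% of its tested genes in that direction. The call was lost when Wannanhua 1, Wannanhua 2, Yorkshire 2 or Yorkshire 3 was left out (limma adjusted p = 0.0953, 0.124, 0.0806 and 0.134), with the log2 fold change between 1.96 and 2.22. A non-coding RNA gene overlaps MYBPC1 in the RefSeq table, and without strand their reads could not be told apart.

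ACTN2 (ENSSSCG00000010144) is the alpha-actinin that cross-links actin filaments at the Z-disc of all fibres, beside ACTN3 in fast ones. It stood at 2811, 2534 and 1348 FPKM in Wannanhua 1, 2 and 3, against 473, 536 and 575 in Yorkshire 1, 2 and 3. The Yorkshire libraries lay close together and the breeds did not overlap. ACTN2 was higher in Wannanhua by 2.01 ± 0.31 on the log2 scale (SE; limma adjusted p = 0.0312; 2231 ± 777 against 528 ± 51.2 FPKM, SD, n = 3), and edgeR gave a log2 fold change of 1.99 (adjusted p = 0.0436). Without any 1 of Wannanhua 1, Wannanhua 2 and Yorkshire 1, 2 and 3 the call was lost (limma adjusted p = 0.110, 0.124, 0.0589, 0.0806 and 0.131), with the log2 fold change between 1.81 and 2.08. Without Wannanhua 3 both genes passed with a smaller adjusted p, ACTN2 at a limma adjusted p = 0.00422 and MYBPC1 at 0.00523.

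**Figure D2:**
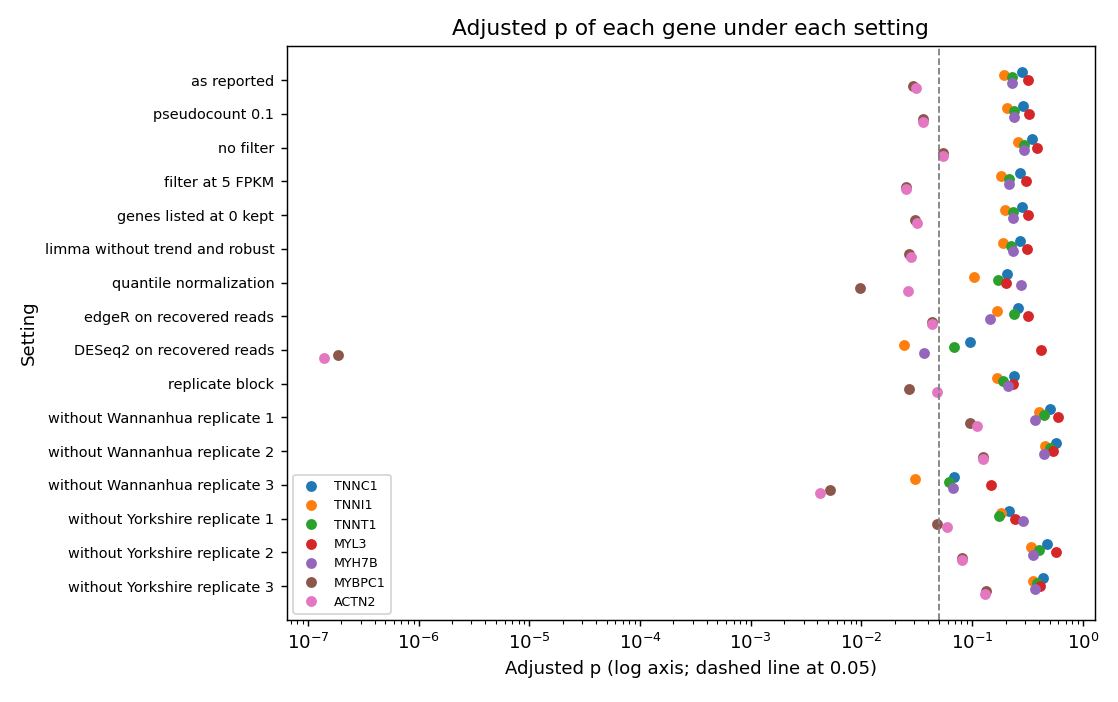
Adjusted p (log axis) of each of the 7 genes as reported and under each alternative; 1 point is 1 gene under 1 setting and the dashed line marks 0.05. MYBPC1 and ACTN2 pass as reported (0.0295 and 0.0312) but not without Wannanhua 1 (0.0953 and 0.110), and TNNI1 passes without Wannanhua 3 (0.0305).

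The 7 genes thus differed in how Wannanhua 3 compared with Yorkshire, a split noted after the values were seen and not tested. Wannanhua 1 and Wannanhua 2 each exceeded each Yorkshire library in 7 of 7 genes. Wannanhua 3 exceeded Yorkshire 2 in 7 of 7 genes, Yorkshire 3 in 5 and Yorkshire 1 in 2, which were MYBPC1 and ACTN2. The share of all tested genes so placed was not computed for single pairs of libraries, so these counts have no background. Relative to its own mean over the 6 libraries, MYBPC1 stood at 0.44 in Wannanhua 3 and ACTN2 at 0.35 on the log2 scale. The other 5 stood between -0.68 and -0.42 there. The summed level of the 7 was 45240 and 46650.2 FPKM in Wannanhua 1 and 2 but 13201 in Wannanhua 3, against 18195, 6698 and 11072.5 in Yorkshire 1, 2 and 3. Without Wannanhua 3, limma called 3 of 7 members higher, against 2.33% of the 11540 genes tested then.

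**Figure D3:**
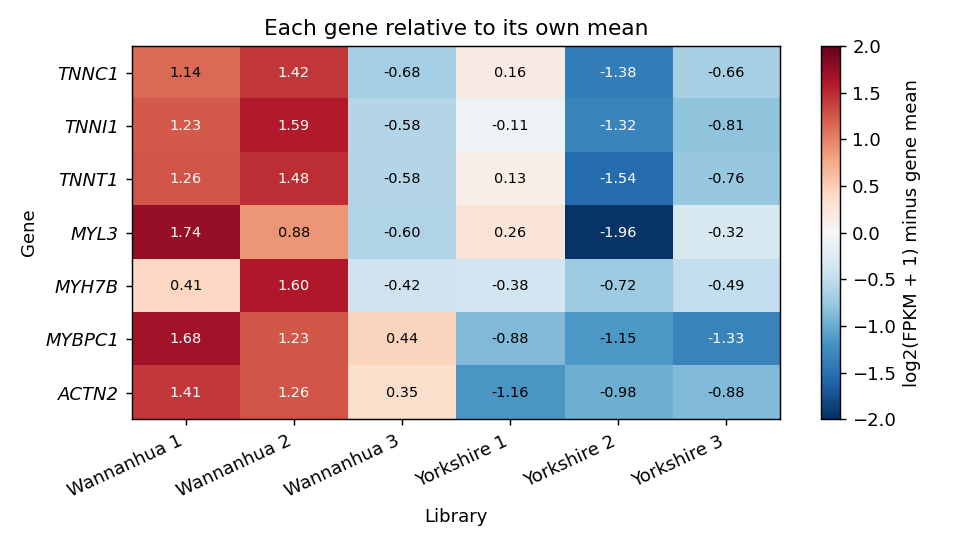
Level of each gene in each library as log2(FPKM + 1) minus that gene's mean over the 6 libraries; red is above the mean and blue below, with the value in each cell. In the Wannanhua 3 column MYBPC1 and ACTN2 are above 0, at 0.44 and 0.35, and the other 5 genes are below it.

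The slow genes were set beside their fast counterparts within each library. Of 6 pairs, 3 had a row for the fast gene: TNNC1 with TNNC2, MYL3 with MYL1 and MYBPC1 with MYBPC2. The fast counterparts TNNI2, TNNT3 and ACTN3 had no row under a matching symbol and are not analysed here. TNNC1 made up 64.4%, 76.3% and 18.6% of the FPKM of both troponin C genes in Wannanhua 1, 2 and 3, against 22.2%, 10.6% and 15.7% in Yorkshire 1, 2 and 3. By FPKM the slow form was thus the larger part in Wannanhua 1 and 2, and the fast form in Wannanhua 3 and in Yorkshire. Recovered reads are not scaled to transcript length. In Wannanhua 1 they were 109906 for TNNC1 and 112418 for TNNC2, and in Wannanhua 2 they were 119775 and 67101. The lengths behind the FPKM values were not given in the sources used here, and these shares depend on them.

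MYL3 made up 50.4%, 59.4% and 13.8% of MYL3 plus MYL1 in Wannanhua 1, 2 and 3, against 13.9%, 2.85% and 9.16% in Yorkshire 1, 2 and 3. Wannanhua 3 again stood just below Yorkshire 1. In recovered reads MYL3 was below MYL1 in Wannanhua 1 (89044 against 125346) and in Wannanhua 2 (44539 against 47711). MYBPC1 made up 87.8%, 84.7% and 48.5% of MYBPC1 plus MYBPC2 in Wannanhua 1, 2 and 3, against 23.6%, 14.6% and 16.2% in Yorkshire 1, 2 and 3. For this pair the breeds did not overlap. The mean log2 ratio of slow to fast form was higher in Wannanhua than in Yorkshire by 2.57 for troponin C, 2.98 for the light chains and 3.95 for myosin-binding protein C. These ratios were not tested.

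**Figure D4:**
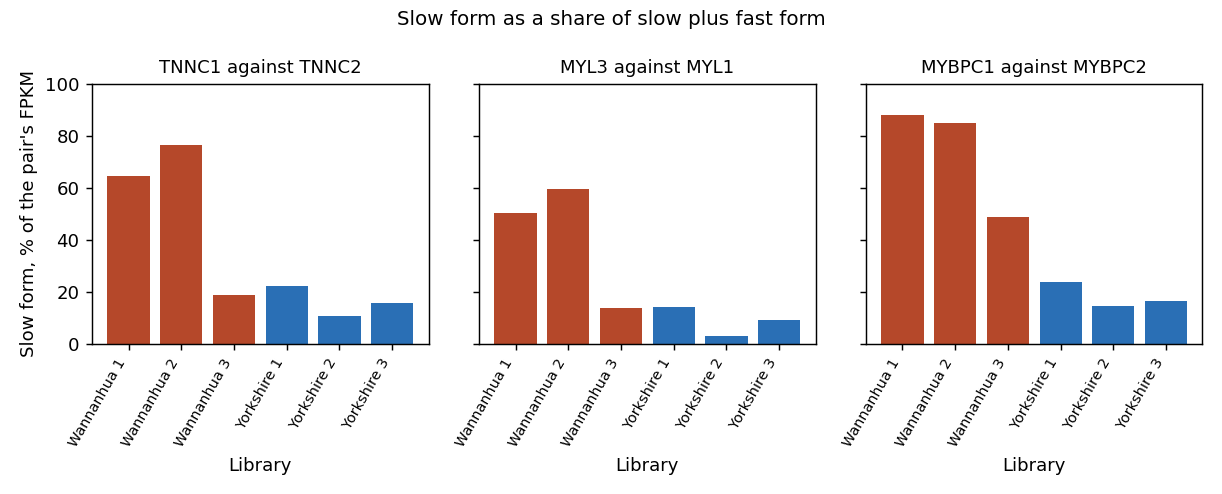
The slow form as a percentage of the FPKM of slow plus fast form, for troponin C, the essential light chains and myosin-binding protein C; each bar is 1 library, Wannanhua in red and Yorkshire in blue. Wannanhua 1 and 2 have the tallest bars in each panel, and Wannanhua 3 is above the Yorkshire libraries in the MYBPC1 panel, at 48.5%.

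The fast counterparts were lower in Wannanhua by their means, without passing the test. TNNC2, fast troponin C, stood at 8289, 5648 and 18599 FPKM in Wannanhua 1, 2 and 3 and 22034 to 26551.5 in Yorkshire (log2 fold change -1.32, limma adjusted p = 0.138). MYL1, the fast essential light chain, had a log2 fold change of -1.64 (limma adjusted p = 0.0944) and MYBPC2, the fast myosin-binding protein C, one of -1.71 (limma adjusted p = 0.0988). For each of these 3 genes all Wannanhua libraries stood below all Yorkshire libraries. Over all tested genes the breeds did not overlap in 29.9%, in either direction, and in 20.3% with Wannanhua higher. Without Wannanhua 3, TNNC2 and MYBPC2 passed (limma adjusted p = 0.0196 and 0.00670) and MYL1 did not (0.0529). Over the list of 16 fast contractile genes, 8 were tested and 1 was called, CASQ1, the calcium store protein, which was lower (limma adjusted p = 0.0435), against 1.29% of all tested genes called lower. CASQ1 passed in 1 of the 6 fits without a library, that without Wannanhua 3 (limma adjusted p = 0.0245, and up to 0.176 in the others), where 4 of the 8 were called lower, against 2.04% of all genes tested in that fit. All 8 had a negative log2 fold change, with a median of -1.28. PVALB, parvalbumin, the calcium buffer of fast fibres, stood at 0.106, 8.20 and 44.9 FPKM in Wannanhua 1, 2 and 3 and 29.5 to 87.8 in Yorkshire (log2 fold change -2.73, limma adjusted p = 0.272).

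Among 12 other genes tied to slow fibres, 3 had a row and 2 were tested. Both were called higher in Wannanhua: CSRP3, a Z-disc LIM protein, with a log2 fold change of 3.81 (limma adjusted p = 0.0397), and ANKRD2, a stretch-responsive ankyrin protein, with 2.77 (limma adjusted p = 0.0115). Their levels in Wannanhua 3 were 679.995 and 299 FPKM, below those of Wannanhua 1 and 2 and above each Yorkshire library. In this they were placed as MYBPC1 and ACTN2 were. Of all tested genes 1.76% were called higher in Wannanhua, and in 20.3% all Wannanhua libraries stood above all Yorkshire libraries. Leaving out Wannanhua 1, Wannanhua 2 or Yorkshire 3 ended both calls (limma adjusted p = 0.145, 0.138 and 0.139 for CSRP3, and 0.0532, 0.0814 and 0.0690 for ANKRD2), and leaving out Yorkshire 2 ended that of CSRP3 (0.0991). The gene listed as MYH6, a myosin heavy chain of the heart, stood at 6645 FPKM in Wannanhua 1 and 2323 in Wannanhua 3, was listed at 0 in Wannanhua 2, and stood at 1265 to 1578 in Yorkshire. It was left out of the test because an exact 0 in so abundant a gene can be a failed estimate. The 3 heart markers with a row summed to between 1.16 and 15.1 FPKM, and whether the row listed as MYH6 holds reads of that gene alone was not tested. MYH7, the heavy chain that defines slow fibres, had no row under a matching symbol and was not analysed here.

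Of 31 sarcomere genes listed here as shared by both fibre types, 21 were tested, and the median log2 fold change was 0.35. Whether each of them, TPM1 included, is shared alike by both fibre types was not checked. In limma 1 was called, against 3.05% of all genes tested: CAPZB, the beta subunit of the protein that caps actin filaments at the Z-disc, which was lower in Wannanhua (87.5 ± 9.81 against 207 ± 17.9 FPKM, SD, n = 3; limma adjusted p = 0.0270). The call was lost without Wannanhua 1 or 2 or Yorkshire 2 or 3 (limma adjusted p = 0.110, 0.124, 0.0806 and 0.134), and with Wannanhua 3 left out 5 genes of the list were called, 2 higher and 3 lower, against 4.37% of all genes tested then. LMOD2, a leiomodin that lengthens actin filaments, stood at 887, 894 and 518 FPKM in Wannanhua 1, 2 and 3 and 97.2 to 312 in Yorkshire (log2 fold change 2.02, limma adjusted p = 0.0558). TPM1, alpha-tropomyosin, stood at 4085, 1985 and 7254 FPKM in Wannanhua 1, 2 and 3 and 14835 to 16911.5 in Yorkshire (log2 fold change -2.00, limma adjusted p = 0.0607). The list thus held genes on both sides, 16 positive and 5 negative.

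Of 32 regulators of fibre type, 26 were tested and 0 passed in limma. At an unadjusted p under 0.05 stood 5 of them, where 22.1% of all genes tested did. Of the 26, edgeR called 0 and DESeq2 called 3, against 2.87% of 13065 genes and 6.79% of 17595. Both of these shares cover genes below the limma filter too, so they are over an unlike set. Their median log2 fold change was 0.19. The largest differences were those of MYOD1, a myogenic factor linked to fast fibres (-1.59, limma adjusted p = 0.136), ESRRB, an estrogen-related receptor (1.52, 0.0799), and PROX1, a homeobox factor of slow fibres (1.28, 0.116). ESRRB stood at 4.02, 7.22 and 1.73 FPKM in Wannanhua 1, 2 and 3 and 0.438 to 1.05 in Yorkshire. PROX1 stood at 3.86, 5.50 and 1.35 FPKM and at 0.433 to 1.29. For both genes Wannanhua 3 was the lowest Wannanhua library and lay just above Yorkshire, and both passed without it (limma adjusted p = 0.0211 and 0.0268). They were the 2 of the list called higher in that fit, against 2.33% of all genes tested then. Such a placing above all Yorkshire libraries was found in 5 of the 26, against 20.3% of all tested genes. Both genes were low, with 12 to 31 recovered reads for ESRRB and 23 to 80 for PROX1 in Yorkshire.

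**Figure D5:**
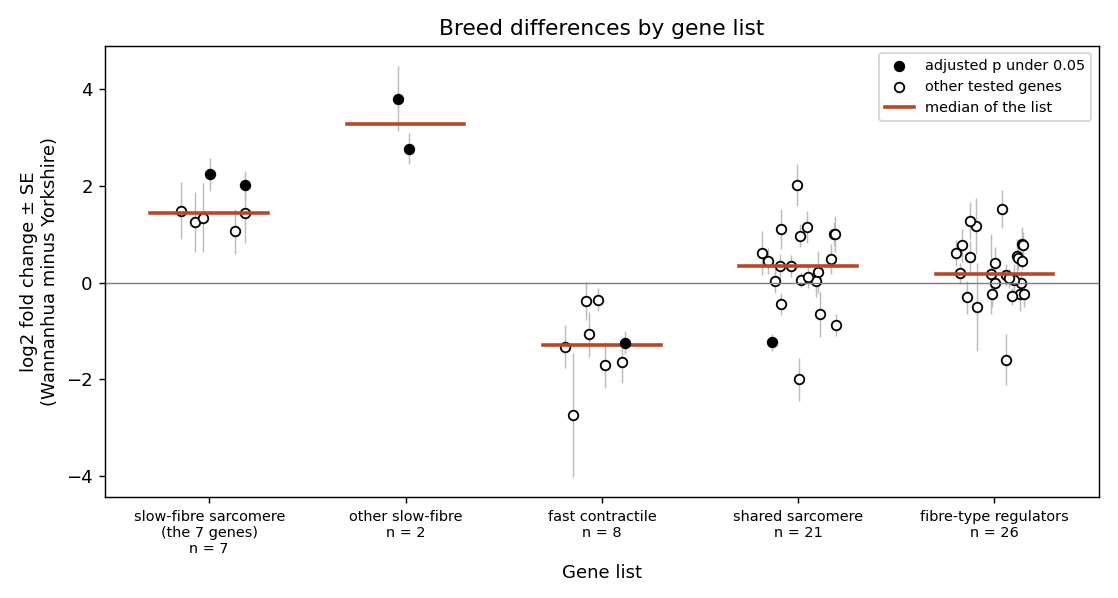
Log2 fold change of each tested gene (Wannanhua minus Yorkshire, with its SE) by gene list; filled points had an adjusted p under 0.05 and the red line is the list's median. The 7 slow-fibre sarcomere genes all lie above 0 with a median of 1.45, and the 8 fast contractile genes all lie below 0 with a median of -1.28.

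Outside the 7, the genes whose pattern over the 6 libraries was most like their mean pattern were sought among 2869 named genes with a mean of at least 10 FPKM. Likeness was the root mean square difference between centred log2(FPKM + 1) values, so a smaller value is more alike. The nearest was HOMER2, a scaffold protein of calcium signalling, at 0.11, followed by PDLIM1, a PDZ and LIM protein of the actin cytoskeleton, at 0.19. ACADVL, the very-long-chain acyl-CoA dehydrogenase, also stood at 0.19. ACAA2, a mitochondrial thiolase, stood at 0.22 and NNT, the mitochondrial transhydrogenase, at 0.25. The 7 genes themselves differed from their own mean pattern by 0.17 for TNNI1 to 0.49 for MYL3.

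HOMER2 stood at 214, 196 and 58.3 FPKM in Wannanhua 1, 2 and 3, against 73.6, 33.5 and 47.0 in Yorkshire 1, 2 and 3. As with the troponin genes, Yorkshire 1 stood above Wannanhua 3. The pattern was chosen for its likeness and is given as a description.

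Markers of other cells were read beside these results. Of 50 such markers in 10 lists, 32 had a row and 24 were tested, and limma called 0 of them with or without Wannanhua 3 (5 at an unadjusted p under 0.05, against 22.1% of all genes; 0 in edgeR and 5 in DESeq2, against 2.87% and 6.79%). The edgeR and DESeq2 shares again cover genes below the limma filter. TNNC1 and MYL3 are also heart genes. Of the 8 heart markers 3 had a row, with a summed level of 1.16 to 2.58 FPKM in Wannanhua and 2.07 to 15.1 in Yorkshire, and MYL4 and MYBPC3 lay under 1 FPKM in every library. Red cell markers moved with the troponin pattern: their summed level over 3 of 4 genes was 144, 119 and 43.7 FPKM in Wannanhua 1, 2 and 3, against 93.9, 15.8 and 18.4 in Yorkshire 1, 2 and 3, nearly all of it HBB, a haemoglobin chain. Nerve sheath markers, 2 of 4 with a row, summed to 7.73 to 11.6 FPKM in Wannanhua and 0.853 to 5.53 in Yorkshire, and so followed the placing of MYBPC1 and ACTN2. The part of red cells or nerve sheath in the results was not tested.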

How the data were processed

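Per the labels' protocols, poly-A RNA was made into paired-end libraries with a kit that keeps no strand information. CASAVA 1.7, TopHat2 2.0.6 and build Sscrofa10.2 appear in the submitters' processing notes, which give them no role. The read counter, the annotation and the handling of reads that match several genes were not given in the sources used here. Per the file headers, the authors deposited FPKM values and values headed as counts that are not whole. These deposited values were treated as a signal, reads divided by 1 factor per library: 99.71% to 99.82% of values above 0 were whole multiples of a step, within 0.01 of a read or a relative 1e-05. The step was sought among values near 1. It was not the smallest value, as each library held 1 to 3 values below 1 read. FPKM per scaled count differed by 1.01 to 1.18 times between libraries for the 7 genes. Symbols matched 10384 of 17627 identifiers (58.9%). Annotation of that build was not used here, so no coordinates or sequences are given.

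The test was limma 3.58.1 in R 4.3.3 on log2(FPKM + 1), with breed as the only term and trend and robust settings. Such fold changes understate the change of low genes. Genes needed 1 FPKM in at least 3 libraries, and all 7 members passed. Also left out were 7 genes listed at 0 in a library although a scaled count reached 10000 elsewhere, a rule from an earlier analysis of these data. Benjamini-Hochberg adjustment ran over all tested genes, and an adjusted p under 0.05 was called. Alternatives used edgeR 4.0.16 and DESeq2 1.42.0 on recovered reads, among others. Both count methods and limma were tested on simulated data. Named genes were the members, their fast counterparts and, in each other fibre or sarcomere list, the genes called and up to 3 with the largest fold change. The 5 genes most like the members were also named. The members and lists were chosen with earlier results of these data known, so no list was tested.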

Additional observations from a re-analysis of the deposited data

How the results depend on the processing

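All 7 genes kept a positive log2 fold change under each of the 15 alternatives. Their median stayed between 1.04 and 2.10. The count of 2 members past the threshold was 0 with no filter on low values, with MYBPC1 at a limma adjusted p of 0.0544 and ACTN2 at 0.0546. There 3 members had an unadjusted limma p under 0.05, as did 3191 of all 17620 genes tested. The count past the threshold was 4 in DESeq2, with TNNI1 and MYH7B added, against 6.79% of 17595 genes, which include genes below the limma filter. It was 0 to 3 when a library was left out. With 0 called, without Wannanhua 1, Wannanhua 2, Yorkshire 2 or Yorkshire 3, 2 members had an unadjusted limma p under 0.05. Over all genes tested these were, in that order, 1856 of 11565, 1742 of 11470, 2290 of 11502 and 1916 of 11555. Without Yorkshire 1, 1 member passed the adjusted threshold, MYBPC1, against 149 of all 11650 genes tested. In that fit 5 members had an unadjusted limma p under 0.05, against 2613 of all genes. Over all genes, 360 passed, 69 with no filter, 1195 in DESeq2, 205 with the replicate block and 11 to 504 when a library was left out. Fewer libraries remain in each of those last fits, and the cause of the other changes was not tested. Higher genes were 208 of the 360, and 138 of 338 after quantile normalization, where the median of all genes was 0.00 and the members' median 1.64. With the replicate number as a block 2 members passed (MYBPC1 at an adjusted p of 0.0266 and ACTN2 at 0.0483). Nothing in the labels says that the replicate numbers pair animals, so the main fit had no block. Same-numbered libraries shared deviations at correlations of 0.101, -0.012 and 0.107, and the other pairs ran from -0.134 to 0.021. Without a library in turn, the breed difference in log2 slow to fast ratio ran from 1.80 to 3.71 for TNNC1, 2.28 to 3.96 for MYL3 and 3.40 to 4.86 for MYBPC1, lowest without Wannanhua 2, Yorkshire 2 and Wannanhua 1 respectively. Each member had at least 1350 reads in every library, and with 3 libraries a breed the spread between libraries sets the precision.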

Other observations

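Some structural genes of the list of sarcomere genes taken as shared by both fibre types were placed as MYBPC1 and ACTN2 were. In them each Wannanhua library stood above each Yorkshire library. They are named with their values known. DES, the intermediate filament that links neighbouring fibrils, stood at 4376 to 5716 FPKM in Wannanhua and 2181 to 2934 in Yorkshire (log2 fold change 0.98, limma adjusted p = 0.0706). MYOT, the Z-disc protein myotilin, stood at 1611 to 2212 and 759.757 to 1130.19 FPKM (log2 fold change 1.01, limma adjusted p = 0.0706). NRAP, which takes part in fibril assembly, stood at 244 to 391 and 84.7 to 174 FPKM (log2 fold change 1.16, limma adjusted p = 0.102). None of the 3 passed the threshold. In this list 11 of 21 tested genes had breeds that did not overlap, against 29.9% of all tested genes in either direction. Of them 7 were higher in Wannanhua, against 20.3% of all tested genes. The 7 also held NEB and XIRP2, with log2 fold changes of 0.35 and 0.50 (limma adjusted p = 0.400 and 0.392). Lower in Wannanhua without overlap were TPM1, TMOD4, CAPZA2 and CAPZB.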
